A study of Mus musculus with 12 samples.

Results

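The BCL2 family decides whether a cell's mitochondria release the proteins that start apoptosis. Here 10 of its genes were followed through blood stem cells from sham-operated mice and mice given mobilizing agents. They are Bcl2, Bcl2l1 and Mcl1, which protect the cell, Bax and Bak1, which open the outer mitochondrial membrane, and Bcl2l11, Bid, Bad, Bbc3 and Pmaip1, the BH3-only genes that act upstream of that step. The members were found by name, as every probe other than a control whose gene name in the array files is 1 of these 10. They are 22 of 56605 probes on the array, and all 22 passed the filter on dim probes. In the tests across genes they are 10 of 33189 genes.

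The study measured gene expression in stem cells sorted from the bone marrow of male mice after enrichment for Kit (CD117), using the LSK SLAM gate of lineage markers, Sca-1, Kit and SLAM family receptors. Each of 4 groups held 3 mice, with 1 single-colour Agilent array per mouse. The controls were sham-operated. POL5551, which blocks CXCR4, the receptor that holds stem cells in the marrow, was infused continuously for 2 weeks at 100 mg/kg per day, and cells were taken 14 days after the infusion began. G-CSF, a growth factor of granulocytes that moves stem cells into the blood, was given at 100 ug/kg every 12 h, as 4 injections over 2 days or 9 injections over 5 days. The labels name a sham operation for the controls alone, and no group injected with vehicle was analysed here, so operation, injection and G-CSF cannot be told apart. The sources used here do not give strain, age or genotype.

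In the intrinsic pathway of apoptosis, the protective proteins BCL2, BCL-XL (from Bcl2l1) and MCL1 hold BAX and BAK in check. BH3-only proteins such as BIM (from Bcl2l11), BID, BAD, PUMA (from Bbc3) and NOXA (from Pmaip1) bind the protective proteins or activate BAX and BAK directly, after which cytochrome c leaves the mitochondrion and caspases are activated. Blood stem cells are known to need MCL1 to survive, and cytokine signals through STAT factors are known to raise Bcl2l1 and Mcl1 in blood cells.

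Probes of 60 bases read each gene, and they are shown first because different probes of the same gene gave different answers below. The first 4 lie in coding sequence, as judged from the known proteins, since no annotation of the design's build was used here. They were chosen after their values were seen, because the results turn on them or because they cross an intron. Letters are lower case throughout, since no base within them is singled out, and positions are on mm9, from the array design.
Bcl2 A_51_P380013 (chr1:108608970-108609029, minus strand): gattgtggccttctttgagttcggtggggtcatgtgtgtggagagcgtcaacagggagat
Bcl2l1 A_52_P510877 (chr2:152655185-152655244, minus strand): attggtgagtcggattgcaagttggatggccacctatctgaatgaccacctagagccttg
Bax A_51_P254541 (chr7:52721469-52721624, minus strand): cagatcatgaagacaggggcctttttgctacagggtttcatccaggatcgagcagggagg
Bcl2l11 A_51_P484880 (chr2:127972893-127983988, plus strand): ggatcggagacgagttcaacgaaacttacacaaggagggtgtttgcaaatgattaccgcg
The Bax probe covers an interval of 156 bases and the Bcl2l11 probe one of 11096 bases, both longer than the 60 bases of the probe, so each spans a splice junction.

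The next 2 probes, of which the first 30 bases are shown, were given neighbouring positions in Bcl2l1 and moved in opposite directions.
Bcl2l1 A_66_P122989 (chr2:152606400-152606446, minus strand): gagaggggtgtgtagggaggagagcctgtc
Bcl2l1 A_55_P1974877 (chr2:152606404-152606463, minus strand): atagtttgtgtgaaggtgaaagtgcagttc
The design gives these 2 probes intervals that share 43 bases of the genome. The longest run of letters common to the whole probes was nevertheless 5 bases on either strand. The design also places them apart in the same transcript, NM_001289716, at positions 1419 and 2563. The genome interval of A_66_P122989 covers 47 bases although the probe has 60. Its position is therefore unsettled here, and values from it are named by the probe.

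A level below is the log2 of the processed signal minus the 75th percentile of log2 signals on the same array, so 0 is that percentile and a difference of 1 is a doubling. The 75th percentile of the signal ran from 1638 on sham mouse 1 to 5579 on mouse 1 of the 5-day group, and 75.3% to 85.6% of probes were well above background. Off-tissue probes, which read olfactory, vomeronasal, taste and keratin-associated genes that marrow cells are not known to need, served as a gauge of each array. Their median level over 1535 probes was -1.61, -3.30 and -3.45 in the sham mice and -5.17, -4.50 and -4.11 under POL5551. It was -2.41, -2.73 and -2.6 after 2 days of G-CSF and -3.97, -3.87 and -3.25 after 5 days. Sham mouse 1 stands apart at the top, the POL5551 mice are below every other mouse, and results that rest on sham mouse 1 are given with and without it. All 3 arrays of the 2-day group were on a slide of their own, so slide and group cannot be told apart there. POL5551 and sham shared slides 1 and 2, and POL5551 and 5-day mice shared slide 3. Sham and 5-day mice shared no slide, so every difference between them is also one between slides. Of 11 names in the list of sort markers 10 were on the array, and 8 to 10 of these were well above background in every mouse.

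No member gene passed an adjusted p of 0.05 against sham after any of the 3 treatments, by limma with Benjamini-Hochberg adjustment over all genes. Against sham, 2.28% of all genes were called for POL5551, 0.0331% for 2 days of G-CSF and 0.0663% for 5 days. These shares were, with sham mouse 1 left out, 0.214%, 0.5% and 0.0572%. The 758 genes called for POL5551 against sham also moved with other mice, to 4666 without sham mouse 3, 2497 without sham mouse 2, 60 without POL5551 mouse 1 and 114 without POL5551 mouse 2. They numbered 242 to 276 when a 2-day mouse was left out, and 459 and 359 without 5-day mouse 1 or 2. At an unadjusted p under 0.05, 4 of 10 genes differed from sham under POL5551, where 35% of all genes did, and none did after G-CSF at either time, where 9.12% and 11.1% of all genes did. The moderated F test over the 4 groups called none of the 10 genes and 1.35% of all genes. At an unadjusted p under 0.05 it took 2 of the 10 and 34% of all genes, with p values of 0.0388 for Bak1 and 0.0484 for Bcl2l1 by probe A_66_P122989. Between treatments, 1 call was made, for Bcl2l1 by the same probe between POL5551 and 2 days of G-CSF, and its probes disagree as set out below.

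**Figure D1:**
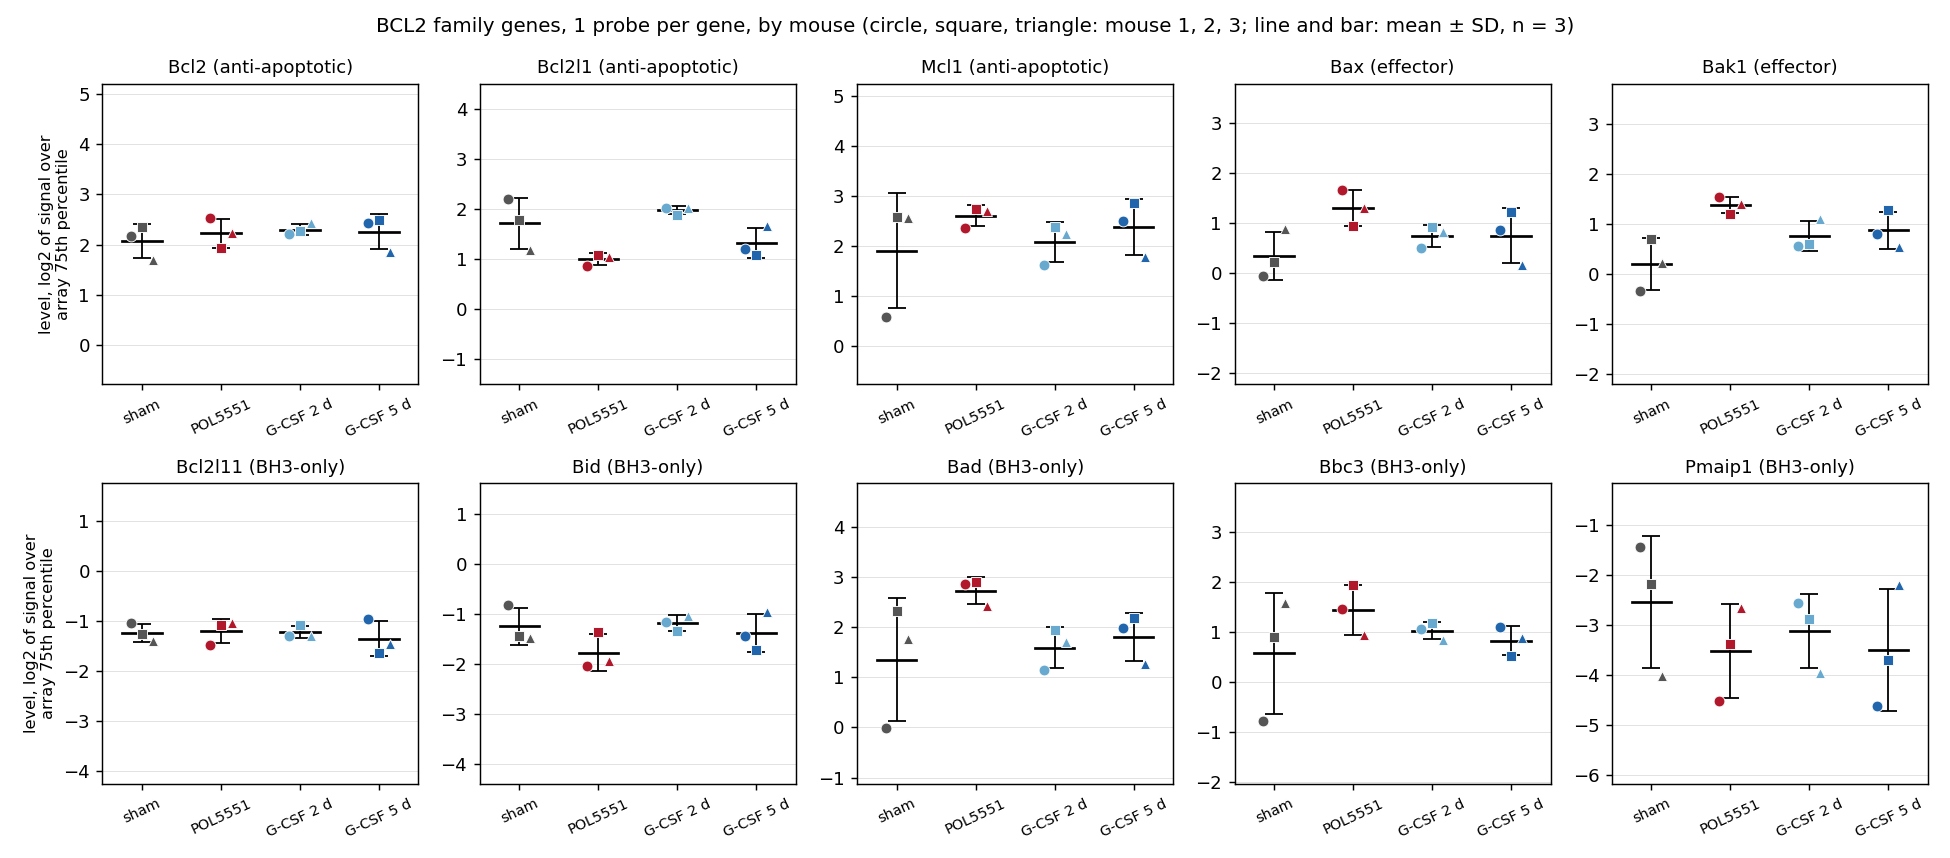
Level of each of the 10 genes by its brightest probe (y axis, log2 of signal over the array's 75th percentile) in the 4 groups (x axis). Symbols are mice, lines are means and bars are SD (n = 3). Bax, Bak1 and Bad lie higher in all 3 POL5551 mice than in all 3 sham mice, and Bcl2, Mcl1 and Bcl2l11 overlap between all groups.

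Bcl2, the founding member and a guard against BAX and BAK, was level across the groups by its brightest probe, A_51_P380013. The sham mice measured 2.18, 2.34 and 1.70, and the POL5551 mice 2.52, 1.93 and 2.22. After G-CSF the levels were 2.21, 2.26 and 2.42 at 2 days and 2.42, 2.49 and 1.86 at 5 days. All 4 groups overlapped, with means between 2.07 ± 0.33 and 2.30 ± 0.11 (SD, n = 3). The differences from sham were 0.15 (95% interval -0.53 to 0.83) for POL5551, 0.22 (-0.46 to 0.90) for 2 days and 0.18 (-0.50 to 0.86) for 5 days of G-CSF. The sign of the POL5551 difference flipped in 5 of 26 other settings, quantile normalization and the authors' values among them, so no direction is given.

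A second Bcl2 probe, A_52_P534870, lies at chr1:108434793-108434852 and reads position 7109 of the long transcript NM_009741. Its levels were 0.62, 0.69 and 0.67 in sham mice, 1.21, 1.84 and 0.79 under POL5551, 0.08, 0.06 and -0.50 after 2 days and 1.05, 0.13 and 0.22 after 5 days of G-CSF. POL5551 lay above sham and sham above the 2-day group, with no overlap at either step. POL5551 exceeded the 2-day group by 1.40 (SE 0.37, adjusted p = 0.0276 by limma over all probes), and the difference passed under all 5 scalings tried, at 1.19 to 1.85. The brightest Bcl2 probe gave -0.07 for the same comparison. The remaining probe, A_52_P438280, was dim, with levels between -3.58 and -1.97, and differed from sham by -0.58 under POL5551 (adjusted p = 0.288). The 3 probes did not move together over the 12 arrays, with Pearson r between -0.37 and -0.19.

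Mcl1, a protective protein with a very short life in the cell, was high in all groups and was measured by 2 probes that moved together (r = 0.91 over 12 arrays, with the array's scaling shared by both). By A_51_P238786 (chr3:95466855-95466914) the sham mice measured 0.57, 2.58 and 2.55, and the POL5551 mice 2.36, 2.74 and 2.70. The levels were 1.62, 2.37 and 2.24 after 2 days and 2.49, 2.86 and 1.77 after 5 days of G-CSF. Sham mouse 1 was the lowest of the 12 mice, and apart from it the groups ran over each other. The difference between POL5551 and sham was 0.70 (SE 0.52, adjusted p = 0.312), and without sham mouse 1 it was 0.03. The second probe, A_55_P2740649, did not overlap between POL5551 and sham, and gave 1.12 for that comparison (adjusted p = 0.148 over probes) and 0.49 without sham mouse 1. After G-CSF, Mcl1 differed from sham by 0.17 (95% interval -0.98 to 1.33) at 2 days and 0.47 (-0.68 to 1.62) at 5 days.

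Bcl2l1, the gene of BCL-XL, was read by 5 probes, and they did not give the same answer. The brightest, A_66_P122989, measured 2.19, 1.78 and 1.18 in sham mice, 0.87, 1.09 and 1.05 under POL5551, 2.02, 1.88 and 2.02 after 2 days and 1.20, 1.09 and 1.67 after 5 days of G-CSF. By this probe all POL5551 mice were below all sham mice and all 2-day mice. The coding probe A_52_P510877 measured 0.50, 1.67 and 1.28 in sham mice, 2.47, 1.93 and 2.05 under POL5551, 0.33, 0.38 and 1.08 after 2 days and 1.40, 1.62 and 0.60 after 5 days. By the coding probe all POL5551 mice were above all mice of the other 3 groups.

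The comparison of POL5551 with 2 days of G-CSF therefore had both signs within the same gene. A_66_P122989, which represents Bcl2l1 in the test across genes because it is the brightest, was lower by 0.97 (95% interval -1.67 to -0.27, adjusted p = 0.0417), where 30.6% of all genes were called, 5.88% higher and 24.7% lower. As a row of the test across probes its adjusted p was 0.0512. A_52_P510877 was higher by 1.56 (SE 0.41, adjusted p = 0.0273 over all probes), and it passed under all 5 scalings at 1.31 to 2.01. A_55_P1974877 and A_55_P2500448 were also higher, by 1.12 (adjusted p = 0.0621) and 1.43 (adjusted p = 0.0547), and A_51_P299454 differed by 0.25 (adjusted p = 0.556). The call on A_66_P122989 was lost under median scaling, where the difference was -0.52 (adjusted p = 0.163), and on leaving out any of the 6 mice compared. It was lost too without mouse 1 or 2 of the 5-day group, which enter through the pooled spread.

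**Figure D2:**
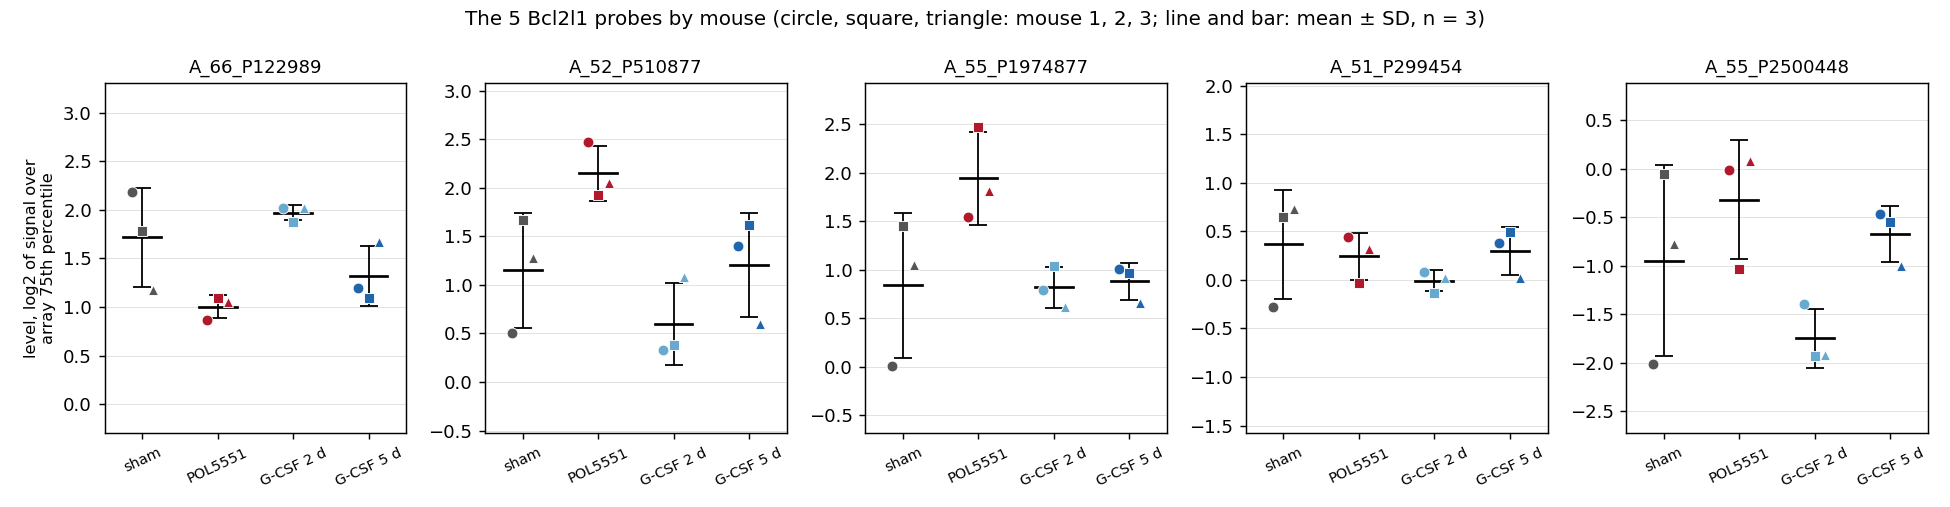
Level of each Bcl2l1 probe (y axis, log2 of signal over the array's 75th percentile) by group (x axis). Symbols are mice, lines are means and bars are SD (n = 3). By group means A_66_P122989 is lowest under POL5551 and highest after 2 days of G-CSF, while A_52_P510877 and A_55_P1974877 are highest under POL5551.

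Over the 12 arrays A_66_P122989 ran against each of the other 4 Bcl2l1 probes, with r between -0.83 and -0.59, while those 4 ran together, with r between 0.31 and 0.80. All probes of an array share its scaling, so these values are a description. The log2 ratio of A_52_P510877 to A_66_P122989 on the same array is free of scaling by a single factor per array, though not of quantile normalization. It was -1.69, -0.10 and 0.10 in sham mice, 1.60, 0.85 and 1.00 under POL5551, -1.68, -1.50 and -0.95 after 2 days and 0.19, 0.53 and -1.07 after 5 days of G-CSF. The ratio was higher in every POL5551 mouse than in any other mouse. Each comparison of POL5551 with another group gave p = 0.1 in an exact permutation test (two-sided), the smallest value that 3 against 3 mice allow. Each probe alone already separated POL5551 from every other group, in opposite directions. This outcome was therefore fixed by the levels above and adds no support to them. A ratio of this kind shows that the 2 probes changed unequally and does not say which of them changed.

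Against sham, POL5551 shifted the Bcl2l1 probes in the same opposed way. A_66_P122989 differed by -0.71 (adjusted p = 0.138 over genes), A_52_P510877 by 1.00 (0.137 over probes) and A_55_P1974877 by 1.1 (0.118 over probes). None of these passed. A_51_P299454 and A_55_P2500448 differed by -0.12 and 0.64 and overlapped between the groups. Without sham mouse 1 the values of the first 3 probes were -0.48, 0.68 and 0.68. On slide 1 the coding probe was 1.97 higher under POL5551 and on slide 2 it was 0.46 higher. After G-CSF the difference of A_66_P122989 from sham was 0.26 (95% interval -0.44 to 0.96) at 2 days and -0.40 (-1.1 to 0.30) at 5 days, with adjusted p values of 0.882 and 0.625.

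The effectors Bax and Bak1 were both higher in all POL5551 mice than in all sham mice. BAK sits on the outer mitochondrial membrane at rest, and its gene is read by A_55_P2013113 (chr17:27156807-27156866). Bak1 measured -0.33, 0.71 and 0.22 in sham mice and 1.54, 1.21 and 1.39 under POL5551, with no overlap. The levels were 0.57, 0.61 and 1.1 after 2 days and 0.80, 1.28 and 0.54 after 5 days of G-CSF, overlapping sham at both times. The group means ran from 0.20 ± 0.52 in sham through 0.76 ± 0.29 at 2 days and 0.87 ± 0.37 at 5 days to 1.38 ± 0.16 under POL5551 (SD, n = 3). The difference between POL5551 and sham was 1.18 (SE 0.35, adjusted p = 0.0722), the smallest p of any member against sham. It was positive under all 26 other settings, at 0.45 to 1.58, and passed in 2 of them. These were testing only probes above background on all 12 arrays (adjusted p = 0.0498) and leaving out sham mouse 2 (1.43, adjusted p = 0.0453). They called 2027 and 2497 genes in all, in place of 758. Without sham mouse 1 the Bak1 difference was 0.91 (adjusted p = 0.197), and within slides 1 and 2 it was 1.87 and 0.75.

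BAX waits in the cytosol and moves to the mitochondrion when activated, and both of its probes pointed the same way. A_55_P2137406 (chr7:52717122-52717181) measured -0.07, 0.22 and 0.87 in sham mice and 1.65, 0.93 and 1.30 under POL5551. The coding probe A_51_P254541, which spans a splice junction, measured -1.47, -1.30 and -2.17 in sham mice and -0.61, -0.63 and -0.97 under POL5551. All POL5551 mice were above all sham mice by both probes. The differences were 0.95 (SE 0.37, adjusted p = 0.114 over genes) and 0.91 (SE 0.32, adjusted p = 0.113 over probes), and neither passed. Without sham mouse 1 they were 0.75 and 1.00. Within slide 1 they were 1.72 and 0.86, and within slide 2 they were 0.39 and 1.1. After 5 days of G-CSF the coding probe measured -0.82, -0.71 and -1.25, above all sham mice, by 0.72 (adjusted p = 0.442), while A_55_P2137406 measured 0.86, 1.22 and 0.15 and overlapped sham.

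Among the BH3-only genes, Bad, whose protein is held inactive by phosphorylation when survival signals are present, showed the largest difference of the 10 genes between POL5551 and sham, by each gene's brightest probe and with all mice. When sham mouse 1 was left out Bad, at 0.69, came below Bak1 at 0.91 and Bax at 0.75. Bad measured -0.02, 2.32 and 1.77 in sham mice and 2.87, 2.91 and 2.42 under POL5551 by A_55_P1962234 (chr19:7026323-7026382). After G-CSF the levels were 1.15, 1.94 and 1.70 at 2 days and 1.98, 2.18 and 1.27 at 5 days. POL5551 mice were above all other mice, the highest sham mouse reached 2.32 and the lowest POL5551 mouse 2.42, and sham mouse 1 lay far below the rest. The difference from sham was 1.38 (SE 0.54, adjusted p = 0.113), and without sham mouse 1 its adjusted p was 0.373 over probes. Within slides 1 and 2 it was 2.89 and 0.87. Against the 2-day group the difference was 1.13 (adjusted p = 0.113) with all mice and passed without sham mouse 1 (adjusted p = 0.0198), where both group means are the same and only the pooled spread differs.

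Bbc3, the gene of PUMA and a direct target of p53, measured -0.77, 0.90 and 1.58 in sham mice and 1.45, 1.93 and 0.93 under POL5551. It measured 1.06, 1.18 and 0.84 after 2 days and 1.09, 0.52 and 0.87 after 5 days of G-CSF. Only sham mouse 1 lay apart. The difference between POL5551 and sham was 0.87 (SE 0.52, adjusted p = 0.225), and 0.20 without that mouse.

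Bcl2l11, the gene of BIM and a known FOXO target, did not pass for any of its 4 probes. The brightest, A_52_P158527, lay between -1.63 and -0.96 in all 12 mice, with group means of -1.23, -1.20, -1.22 and -1.35 for sham, POL5551, 2 days and 5 days. The 95% interval of its difference from sham was -0.61 to 0.67 for POL5551, -0.63 to 0.65 for 2 days and -0.75 to 0.52 for 5 days. The coding probe A_51_P484880, which crosses a long intron, measured -1.54, -1.96 and -2.25 in sham mice and -2.31, -2.59 and -2.69 after 5 days of G-CSF. These groups did not overlap, but the difference was -0.61 with an adjusted p of 0.6. A_55_P2504051 measured -1.20, -0.76 and -1.62 after 2 days and -2.71, -1.78 and -1.77 under POL5551, a difference of -0.89 (adjusted p = 0.168). The fourth probe, A_52_P348214, was well above background on 5 of 12 arrays and on none of the 2-day group. It was at least 1.89-fold higher in sham than after 2 days (adjusted p = 0.502 over probes), taking the lowest level well above background as the bound, with 2 of the 3 sham arrays above background and measured means of -3.79 and -5.41.

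Bid, which links death receptors to mitochondria once caspase-8 has cut it, had 2 probes that ran against each other (r = -0.78 over 12 arrays). A_55_P2719920 measured -0.82, -1.44 and -1.47 in sham mice and -2.04, -1.35 and -1.93 under POL5551, a difference of -0.53 (adjusted p = 0.236). A_52_P574653 measured -4.50, -1.57 and -0.48 in sham mice and -0.52, -1.20 and -0.66 under POL5551, a difference of 1.39 (adjusted p = 0.228) that fell to 0.23 without sham mouse 1. After 2 days of G-CSF the second probe measured -2.59, -2.62 and -2.01, all below the POL5551 mice, by 1.62 (adjusted p = 0.138), and without sham mouse 1 that comparison passed (adjusted p = 0.0129).

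Pmaip1, the gene of NOXA, which binds MCL1, was the most scattered member by each gene's brightest probe. It was also the dimmest, though well above background on all 12 arrays, and its r with the off-tissue median was 0.63. Pmaip1 measured -1.44, -2.17 and -4.01 in sham mice, -4.51, -3.38 and -2.65 under POL5551, -2.55, -2.87 and -3.96 after 2 days and -4.61, -3.70 and -2.20 after 5 days of G-CSF. Each group scattered widely, and all groups overlapped. The 95% interval of the POL5551 difference, -2.69 to 0.74, was wide with 3 mice a group and left room for a larger fall than rise.

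**Figure D3:**
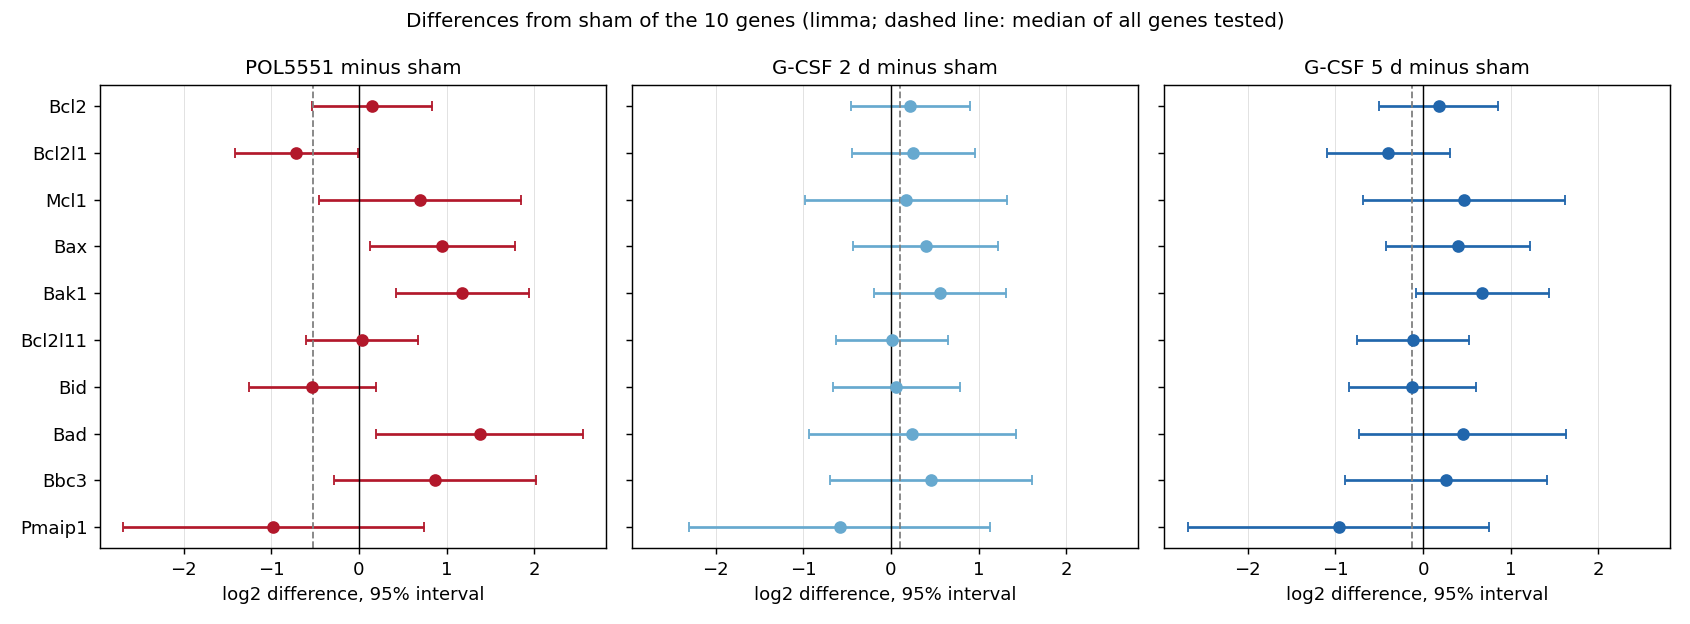
Difference of each gene from sham (x axis, log2, by limma) with its 95% interval for POL5551 and for 2 and 5 days of G-CSF. The dashed line is the median of all genes, -0.52, 0.10 and -0.13. Intervals of Bcl2l1 (A_66_P122989), Bax, Bak1 and Bad exclude 0 under POL5551 before adjustment, and every interval crosses 0 after G-CSF.

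Across the members, POL5551 against sham gave 7 higher and 3 lower genes with a median of 0.43, where the median of all genes was -0.52 and 35.9% of them were higher. Groups did not overlap for 3 higher genes (Bax, Bak1 and Bad) and 1 lower gene (Bcl2l1 by A_66_P122989), 4 of 10, where 36.4% of all genes did not overlap, 10.6% higher and 25.8% lower. Without sham mouse 1 the members' median was 0.16 and that of all genes -0.26. For 2 days of G-CSF 9 members were higher and 1 lower (57% of all genes were higher), with a median of 0.23 against 0.10 for all genes, and without sham mouse 1 the split was 6 and 4. For 5 days it was 6 and 4 (42.5% of all genes were higher), with a median of 0.22 against -0.13. The 5-day split turned to 4 higher and 6 lower without sham mouse 1, with a median of -0.09. The scaling moves these splits. Under median scaling the median of all genes for POL5551 against sham was -0.12, and the share of called genes that were higher was 23.6% in place of 7.78%. These comparisons share the sham mice.

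Between treatments, no member gene was called for POL5551 against 5 days of G-CSF, where 0.0603% of all genes were called, or for 5 against 2 days of G-CSF, where 0% were. At an unadjusted p under 0.05 there were none in either comparison, against 11.6% and 16.2% of all genes. In the first comparison Bad was higher in all POL5551 mice by 0.93 (adjusted p = 0.463) and A_66_P122989 of Bcl2l1 lower by 0.32 (adjusted p = 0.618), 2 of 10 genes without overlap against 25.5% of all genes. On slide 3, which held 1 mouse of each of these groups, the differences were 0.23 and -0.04. Among the brightest probes, A_66_P122989 alone separated 5 from 2 days, at -0.65 (adjusted p = 0.329), 1 of 10 genes against 34.9%. Over all 22 member probes 6 were higher and 1 lower at 5 days without overlap, where 34% of all probes did not overlap, 14.3% higher and 19.6% lower. Those higher included Bcl2 A_52_P534870 by 0.59, Mcl1 A_55_P2740649 by 0.59 and Bax A_51_P254541 by 0.65, with adjusted p values of 0.428, 0.526 and 0.353 over probes.

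POL5551 against 2 days of G-CSF was the widest contrast on these arrays. Among the 22 member probes 2 were called, both higher under POL5551 (Bcl2 A_52_P534870 and Bcl2l1 A_52_P510877), where 23.5% of all probes were called and 5.65% were called higher. Without sham mouse 1, which belongs to neither group and enters only through the pooled spread, 9 of 22 were called, 8 of them higher, where 46.4% of all probes were called and 17.7% called higher. Counts in this comparison moved widely with single mice. Of all genes 10162 were called with every mouse, 17450 without sham mouse 1, 102 without 2-day mouse 1, 209 without POL5551 mouse 1, 1819 without 2-day mouse 3, 5147 without 2-day mouse 2 and 5983 without POL5551 mouse 2. By median scaling the share of all called genes that were higher in this comparison was 49% in place of 19.2%. Over genes, the groups did not overlap for 5 of 10 members, Bax, Bak1 and Bad higher and Bid and A_66_P122989 of Bcl2l1 lower, where 65.1% of all genes did not overlap, 21.8% higher and 43.4% lower. At an unadjusted p under 0.05, 1 of 10 differed, against 49% of all genes. Over probes, 10 were higher and 3 lower without overlap, where 60.6% of all probes did not overlap, 23.8% higher and 36.8% lower. For POL5551 against sham 0 of 22 member probes were called by limma and 7 had an unadjusted p under 0.05, where 1.41% and 31.5% of all probes did. There 10 probes did not overlap, against 33.3% of all probes.

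The off-tissue median moved with the groups and with the member probes. Of the 22 probes 13 had an r below -0.5 with it over the 12 arrays and 4 an r above 0.5. A_66_P122989 of Bcl2l1 had the highest, 0.94, and Bid A_55_P2719920 had 0.82. Bad had -0.88, the coding Bcl2l1 probe -0.88 and Bak1 -0.78, while the brightest Bcl2 probe had -0.13. With that median added to the fit as a covariate, the POL5551 against 2-day difference was -0.14 for A_66_P122989, 0.37 for A_52_P510877 and 1.13 for Bcl2 A_52_P534870. None of these passed, and that fit called 0 of all genes in this comparison, where the main fit called 10162. It also called 0 of all genes for POL5551 against sham and against 5 days, where the main fit called 758 and 20. In the same fit, POL5551 against sham gave 0.45 for Bak1, 0.90 for the junction-spanning Bax probe and -0.47 for Bad. POL5551 mice held the 3 lowest off-tissue medians, so the covariate and the treatment overlap, and its part in these results was not tested beyond this fit.

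**Figure D4:**
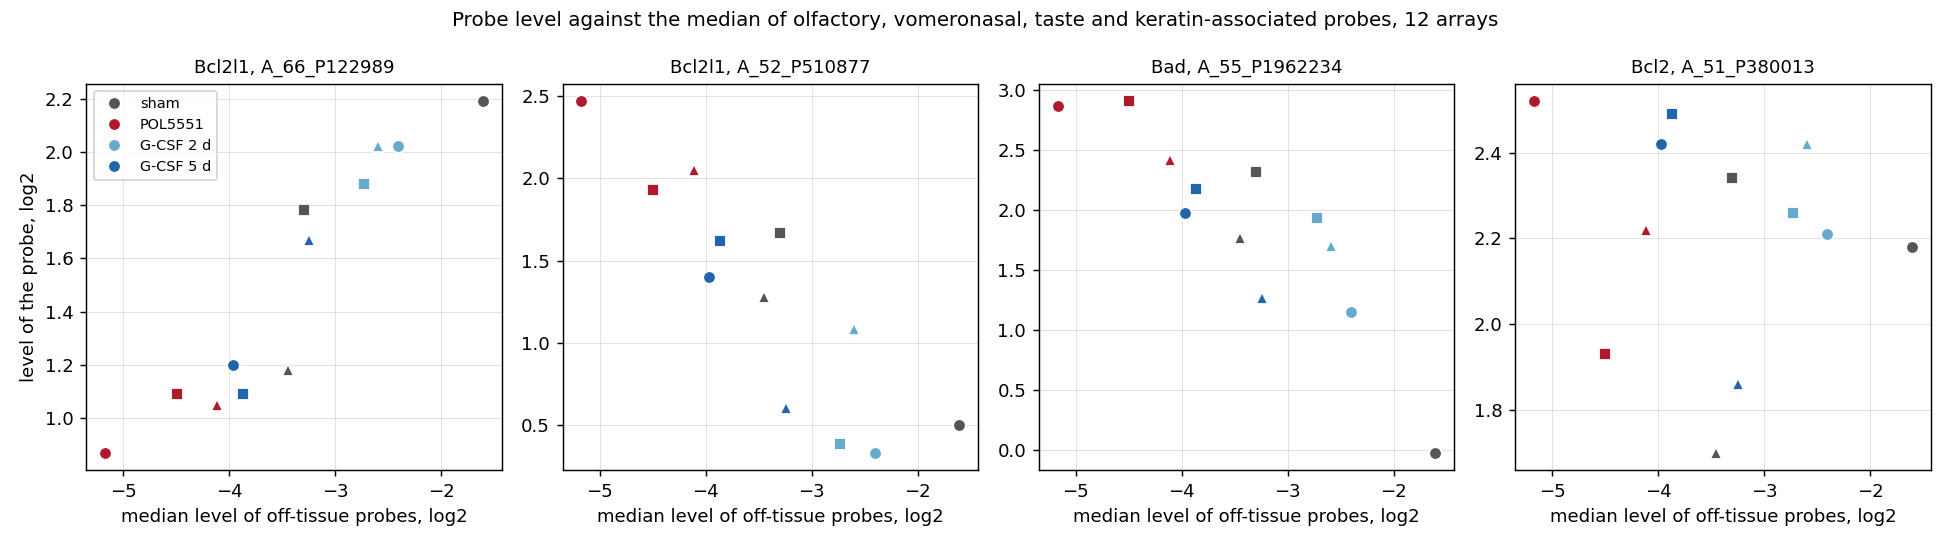
Level of 4 member probes (y axis, log2) against the median of 1535 off-tissue probes (x axis, log2) on each of 12 arrays, coloured by group. A_66_P122989 of Bcl2l1 rises along the axis, the coding Bcl2l1 probe and Bad fall, and the brightest Bcl2 probe spreads without order.

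Ratios to the brightest Bcl2 probe on the same array do not depend on a scaling by a single factor per array, but quantile normalization can change them. For POL5551 against sham 3 of the other 9 genes did not overlap, Bak1 and Bad higher by 1.03 and 1.23 relative to Bcl2 and Bcl2l1 A_66_P122989 lower by 0.86. For POL5551 against 2 days 4 did not overlap, with Bax, Bak1 and Bad higher by 0.63, 0.69 and 1.21 and A_66_P122989 lower by 0.90. Against 5 days of G-CSF the same 3 genes, Bax, Bak1 and Bad, were higher by 0.58, 0.54 and 0.96. Each gene was read here by its brightest probe. By the coding probe A_52_P510877, Bcl2l1 was instead higher relative to Bcl2 under POL5551, without overlap. It was higher by 0.85 against sham, 1.63 against 2 days and 0.98 against 5 days. A_55_P1974877 was higher by 1.19 and 1.09 against 2 and 5 days without overlap. A_51_P299454 differed from sham by -0.27, with overlap. The direction of Bcl2l1 relative to Bcl2 thus depended on the probe. These ratios rest on a single Bcl2 probe. Relative to it, Bcl2 A_52_P534870 was itself higher under POL5551, by 0.47 against sham, 1.475 against 2 days and 0.85 against 5 days. Only its difference from 2 days was without overlap. Against 2 days it rose more than Bax, Bak1 and Bad, and against 5 days more than Bax and Bak1. None of the 9 separated G-CSF at either time from sham. Each ratio without overlap gave p = 0.1 in a two-sided exact permutation test, the smallest possible. The share of all genes that separate by such a ratio was not computed, so these counts are only a description. By level, 36.4%, 65.1% and 25.5% of all genes did not overlap between POL5551 and sham, 2 days and 5 days.

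Markers of other cell types moved between the same groups, as summed linear levels (in units of the array's 75th percentile). The 12 erythroid markers measured on the array summed to 14.2 to 15.6 under POL5551, 7.43 to 11.7 in sham mice and 7.87 to 8.93 after 2 days, with Hbb-b1 not above background on any sham or 2-day array. At 5 days the sum was 8.14 to 10.5. Single erythroid genes went both ways between POL5551 and sham, 6 of 11 tested higher and 5 lower. The 5 granule markers summed to 1.8 to 3.13 in sham mice, 3.45 to 4.16 under POL5551, 3.30 to 3.70 after 2 days and 4.27 to 5.77 after 5 days. Against sham, 3 granule genes were higher and 2 lower under POL5551, 4 and 1 after 2 days, and 3 and 2 after 5 days. The 8 endothelial markers summed to 1.74 to 2.03 in sham mice, 2.35 to 2.84 under POL5551, 2.19 to 2.67 after 2 days and 2.34 to 2.74 after 5 days, with Lyve1 not above background on any array. Of 7 endothelial genes tested against sham, 2 were higher and 5 lower under POL5551, 6 and 1 after 2 days, and 3 and 4 after 5 days. The 12 stromal markers summed to 20.3 to 52.9 under POL5551 and 9.20 to 14.1 in sham mice, in which Ebf3 was not above background on any array. After G-CSF the stromal sum was 12.5 to 44.4 at 2 days and 14.6 to 42.0 at 5 days, overlapping POL5551 at both times. Against sham, 8 stromal genes were higher and 4 lower under POL5551, and 10 and 2 after G-CSF at either time. The 10 T and NK markers summed to 21.2 to 40.1 after 2 days, 10.1 to 15.9 under POL5551 and 10.2 to 18.8 in sham mice, with Cd3g not above background on any array of these last groups. The 8 mast and basophil markers summed to 6.33 to 7.02 after 2 days and 1.34 to 2.98 under POL5551, with Mcpt2 not above background in either. The sort markers themselves summed to 35.1 to 37.8 under POL5551, 24.9 to 35.8 in sham mice and 23.8 to 31.0 after 2 days. Their part in the differences of the members was not tested. In sorted bulk RNA, a change in the cells collected and a change of RNA per cell cannot be told apart.

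The wider pathway was read from gene lists drawn up with earlier results of these arrays known. Among 12 measured relatives of the family beyond the members, none was called against sham after any treatment. For POL5551 against 2 days of G-CSF, 3 were called, all lower, where 30.6% of all genes were called, 5.88% higher and 24.7% lower. They were Bmf, lower by 1.74 (adjusted p = 0.0184), Bcl2l14 by 1.53 (0.0254) and Bcl2l15 by 1.69 (0.0453). Bmf encodes a BH3-only protein that reacts to loss of attachment. Its levels were -1.35, -1.16 and -1.06 under POL5551 and 0.83, 0.75 and 0.08 after 2 days, with sham mice at 0.19, -0.58 and -0.63. All POL5551 mice were below all sham and 2-day mice, and sham overlapped the 2-day group.

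Downstream of the mitochondrion, none of 19 apoptosome and caspase genes was called against sham. Their median difference was 0.78 for POL5551, with 17 higher and 2 lower, beside -0.52 for all genes, and -0.09 and 0.48 for 2 and 5 days of G-CSF. Leaving out sham mouse 1 gave medians of 0.49, -0.51 and 0.10, and at 5 days 11 were higher and 8 lower in place of 16 and 3. Genes of this list were called for POL5551 against 2 days, where 30.6% of all genes were. Cycs, the gene of cytochrome c, was higher by 1.63 (adjusted p = 0.0146), and Xiap, an inhibitor of caspases, by 1.38 (0.0381). Endog, a mitochondrial nuclease, was lower by 1.43 (0.0163). Cycs measured 2.50, 2.91 and 2.09 under POL5551, 1.07, 1.62 and 1.64 in sham mice and 0.67, 1.15 and 0.79 after 2 days. All POL5551 mice were above all mice of those groups. The 5-day mice, at 1.97, 2.24 and 1.37, overlapped the POL5551 and sham mice and lay above all 2-day mice.

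The 13 genes of the outer membrane and of BCL2 partners gave no call against sham. In POL5551 against 2 days Fbxw7, part of the ligase that marks MCL1 for destruction, was higher by 1.17 (adjusted p = 0.0267). Usp9x, which removes ubiquitin from MCL1, measured -0.79, -1.98 and -0.46 under POL5551 and -2.98, -2.6 and -3.09 after 2 days, with sham mice at -5.78, -1.52 and -1.51. The 15 p53 and FOXO regulators gave no call against sham, and POL5551 against 2 days called 6, 4 higher and 2 lower, where 5.88% of all genes were called higher and 24.7% lower. Without sham mouse 1 it called 10, 7 higher and 3 lower, where 52.6% of all genes were called, 16.7% higher and 35.9% lower. Zmat3, a p53 target, was at least 3.95-fold higher under POL5551 (adjusted p = 0.0144), since none of the 2-day arrays was well above background (measured means -2.73 and -5.97). Trp73 and Mdm4, a relative and an inhibitor of p53, were lower by 1.52 (0.0210) and 1.37 (0.0292), and Ccng1, another p53 target, was higher by 1.05 (0.0451).

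Of 12 death receptor genes none was called against sham. Fadd, the adaptor of death receptors, was lower under POL5551 than after 2 days by 3.46 (adjusted p = 0.0150). It measured 0.14, 0.35 and 0.31 under POL5551 and 3.02 and 4.45 in 2-day mice 2 and 3. Mouse 1 of that group has no value, because its spot was marked as an outlier, and the fit used 11 arrays. Ripk3, a kinase of necroptosis, differed by 1.09 in that comparison and was not called.

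The survival cytokine list, 13 genes, held the calls of this pathway against sham, all of Socs3, the feedback inhibitor that STAT3 induces. Socs3 measured -1.0, 0.23 and 0.07 in sham mice, 1.53, 2.06 and 1.22 under POL5551, 2.88, 3.39 and 3.18 after 2 days and 3.29, 3.34 and 2.79 after 5 days of G-CSF. It rose over sham by 1.84 (adjusted p = 0.0427), 3.38 (0.0162) and 3.37 (0.00942). Without sham mouse 1 the POL5551 difference was 1.45 and did not pass (adjusted p = 0.105), and those of G-CSF passed at 3.00 and 2.99. In POL5551 against 2 days Socs3 was lower by 1.55 (0.0204) and Stat5b higher by 1.27 (0.0489). Pim2, a survival kinase, measured 0.45, 0.60 and 0.44 after 5 days and -3.74, -1.30 and -0.74 in sham mice and was not called.

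The genes most like the members were sought for the 3 with the smallest F test p, by Pearson r of levels over the 12 arrays. Bak1 was followed most closely by Ptdss2, Hexa and Nfkb1, with r of 0.94, 0.93 and 0.92. Bad was followed by Mul1, Golga2 and Wrap53, with r of 0.98 for each. Bcl2l1 by A_66_P122989 was followed by Serpinb3c, Olfr1426 and Myo16, also with r of 0.98 for each. Of these the second is an olfactory receptor gene, measured at 0.33, -1.27 and -2.27 in sham mice, -3.31, -2.44 and -2.64 under POL5551, 0.03, -0.98 and -0.33 after 2 days and -2.08, -2.45 and -1.39 after 5 days. The coding Bcl2l1 probe was not the one used in that search.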

How the data were processed

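Per the labels' protocols, RNA of sorted cells was labelled chemically with Cy5. The deposited scanner files hold a fluorescence intensity per spot on a linear scale, made with Agilent Feature Extraction 11.5.1.1 per the submitters' processing notes. A second table deposited by the authors holds intensity values with a median of 1080 in every column, and the tool behind it is not given in the sources used here. Its columns for POL5551 mice 1 to 3 and 5-day mice 2 and 3 match the scanner file of another mouse of the same group, so mouse numbers here follow the scanner files.

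Spots of a probe were averaged as log2 intensity and each array was scaled by its 75th percentile over probes other than controls. Outlier spots were dropped, and none was saturated. A probe was tested if well above background on at least 3 of 12 arrays (49497 probes), and the brightest tested probe stood for a gene. All 12 arrays entered a fit with limma 3.58.1 (R 4.3.3), 8 residual and 3.23 prior degrees of freedom, two-sided, with Benjamini-Hochberg adjustment over 33189 genes (or all probes, where stated) and a threshold of 0.05. Each mouse gave 1 array, and their number limits the precision.

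The members, lists and tests were chosen with earlier results of these data known. From each list the text names up to 4 called genes per comparison, largest first, and otherwise the 2 with the smallest F test p. Likeness took 3 genes with a symbol, well above background on all arrays, for each of 3 members. Alternatives were other scalings, background corrections, filters, probes, slide or mouse number as a block, the off-tissue median as a covariate, the 6 arrays compared, and leaving out each mouse. Mouse numbers do not pair the samples (18 same-numbered pairs, correlations of deviations -0.31 to 0.26). The fit was tested on simulated data. The result of 1 called gene of a pathway list is not reported here.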

Additional observations from a re-analysis of the deposited data

How the results depend on the processing

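No alternative called a member for G-CSF at either time against sham, between those times, between POL5551 and 5 days, or by the F test. For POL5551 against sham the count of 0 became 1 (Bak1, 1.18) when the filter asked for signal on all 12 arrays, and ran from 0 to 1 when each mouse was left out. That filter called 2027 genes in all in this comparison, in place of 758. For POL5551 against 2 days the count of 1 became 0 with median scaling, the authors' values, the replicate block or the off-tissue covariate. It became 2 with every probe tested, with only the 6 arrays compared (Bad added, adjusted p = 0.0236) and with the second-brightest probe of each gene. These settings called 11611 of 49497 probes, 16903 of 33189 genes and 10163 genes, where the main fit called 10162 genes. The member count ran from 0 to 2 when each mouse was left out. With the second-brightest probe, chosen after the data were seen, Bcl2 and Bcl2l1 reversed to 1.40 and 1.56 in that comparison. With the replicate block POL5551 against sham called 181 genes in all in place of 758, and POL5551 against 2 days 8450 in place of 10162. Mouse numbers are not known to pair samples, and the block made no new member call. With slide as a fixed block comparisons with the 2-day group and the F test could not be fitted, and Bak1 gave 1.23 (adjusted p = 0.314) for POL5551 against sham. Over 1470 single-gene values under other settings, other than the second probe, 111 changed sign, none of them a called value, 4 gained a call and 13 lost one. Precision is limited by 3 mice a group. The cause of these shifts was not tested.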
